A study of Mus musculus with 2 samples.

Results

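The difference between the retinoic acid (RA) response of Utx knockout mouse embryonic stem (ES) cells and that of V6.5 wild-type ES cells was computed for each gene. For every gene symbol, the V6.5 log2 ratio (RA-treated over untreated cells) was subtracted from that of the knockout, after averaging the array features that carry the symbol. This gave a value for 22485 genes, read by 33026 of the 44397 features on the 2 arrays, and all 22485 are described. V6.5 is a standard mouse ES cell line, labelled wild type (WT) at Utx. The second line is labelled Utx KO and carries the same V6.5 label, so both are of that background; the making of the allele, the number of clones and the sex of the line were not given in the sources used here. Both lines grew undifferentiated on gelatin in medium containing leukaemia inhibitory factor (LIF), which holds ES cells in self-renewal. Treated cells received 100 nM RA for 48 h in medium without LIF, and untreated cells had none, so a ratio holds the response to RA and to LIF removal together. Each line was read on 1 array, with no replicate and no dye swap. No difference below therefore has a replicate check or a test, and 2-fold (1.00 on the log2 scale) is used as a size, not as a significance threshold.

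RA is a small hormone made from vitamin A. It binds nuclear receptors of the RAR family, which pair with RXR receptors on repeated half-sites in DNA and recruit coactivators to nearby genes. In ES cells RA is known to switch on its own breakdown enzymes, the Hox genes in order of their place in each cluster, and other regulators of the body axis, while genes of the pluripotent state are shut down. Utx (Kdm6a) is an X-linked enzyme that removes methyl groups from lysine 27 of histone H3, the mark that Polycomb complexes place on silent developmental genes. It also belongs to the COMPASS complexes at enhancers, and Uty and Kdm6b are its relatives.

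A difference is positive where the RA-treated over untreated ratio was higher in the knockout. Because each array set treated against untreated cells of 1 line, a difference in the untreated level and a difference in the treated level cannot be told apart, and levels of ES cell markers or of Utx itself were not available to check the labels. Kdm6a had a log2 ratio of -0.39 in V6.5 against -0.16 in the knockout, Uty 0.03 and -0.15, and Kdm6b 0.07 and -0.13. These ratios say nothing of whether Utx was deleted. In bulk RNA, fewer cells of a type and less RNA per cell cannot be told apart either.

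Most genes responded alike. The median difference over all genes was 0.003, the 5th and 95th percentiles were -0.38 and 0.41, and 95.6% of genes lay within 1.5-fold between the lines. The ratio was at least 2-fold higher in the knockout for 131 genes (0.583% of the 22485) and at least 2-fold lower for 105 (0.467%). At 1.5-fold the counts were 562 higher (2.5%) and 422 lower (1.88%). The knockout array had the slightly wider spread, with an SD over genes of 0.486 against 0.467 in V6.5.

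**Figure D1:**
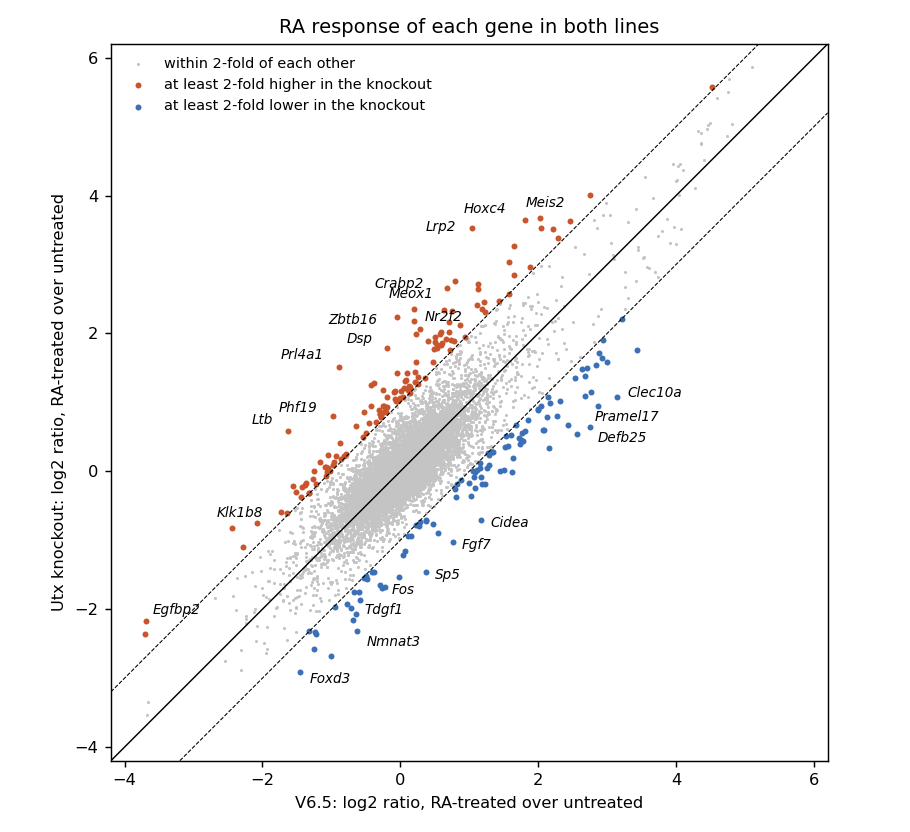
RA response of each gene in V6.5 (x axis) and in the Utx knockout (y axis), both as log2 ratios of RA-treated over untreated cells, 1 array per line. The solid line marks equal ratios and the dashed lines a 2-fold difference; 131 genes lie above the upper dashed line and 105 below the lower one.

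The differences past 2-fold were mostly of genes that responded in 1 line and not in the other. Of the 131 genes with the higher ratio in the knockout, 57 were within 2-fold of no response in V6.5 and at least 2-fold up in the knockout, and 24 were at least 2-fold down in V6.5 and within 2-fold in the knockout. A further 21 were up in both lines, 3 were down in both and 26 were within 2-fold in both. Of the 105 genes with the lower ratio, 47 were up in V6.5 and within 2-fold in the knockout, and 22 were within 2-fold in V6.5 and down in the knockout. Another 16 were up in both lines, 6 were down in both and 14 were within 2-fold in both. No gene was 2-fold up in one line and 2-fold down in the other.

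Over all genes, 566 were at least 2-fold up in V6.5 against 656 in the knockout, and 381 were up in both (67.3% of the V6.5 genes and 58.1% of the knockout genes). The down genes numbered 358 in V6.5 against 371 in the knockout, with 214 in both (59.8% and 57.7%). Failing the 2-fold size in the other line was often a small shortfall: of the 275 genes up in the knockout alone, 57 differed 2-fold between the lines, and of the 185 up in V6.5 alone, 47 did. The induced genes leaned to the knockout. Among the 450 genes with a mean log2 ratio of 1 to 2 over both lines, the median difference was 0.16 and 62.2% were above 0. The 66 genes with a mean of 2 to 3 had a median of 0.19, with 56.1% above 0, 11 at least 2-fold higher and 11 lower, and among the 54 with a mean of at least 3 the median was 0.27 and 63.0% were above 0. The 19209 genes with a mean between -0.5 and 0.5 had a median of 0.001. The 293 genes with a mean of -2 to -1 leaned the opposite way, with a median of -0.06 and 42.7% above 0. Of these, 5 were at least 2-fold higher and 17 lower. Among the 23 genes with a mean below -2 the median was 0.05, with 52.2% above 0. The part of the knockout array's wider spread in these leans was not tested.

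The agreement between features of a gene gives the array's own precision, which is not that of a second culture. Whether features of a gene carry the same sequence was not checked, so features that agree need not be separate readings. In the 387 genes read by at least 10 features, the SD of the difference over features had a median of 0.088. Of these, 10 genes differed at least 2-fold. Gja1, a gap junction protein, stood at -0.52 in V6.5 against 0.87 in the knockout, and its 10 features gave differences from 1.29 to 1.48. Fos, a subunit of the AP-1 transcription factor, stood at -0.26 and -1.70, with features from -1.49 to -1.36. In both genes the features of a line lay close together and far from those of the other line. Mest, an imprinted gene expressed from the paternal allele, stood at 0.22 and 1.995 (12 features, 1.21 to 1.90). Dsp, the desmosome protein desmoplakin, stood at -0.20 and 1.79, but 1 of its 11 features gave 0.24 and the other 10 gave 2.05 to 2.28. The remaining 6 were Igtp, Fbxo32 and Tcim on the higher side and Ctxn3, Olfr713 and Cpt1a on the lower. Of the genes past 2-fold, 108 of the 131 higher and 83 of the 105 lower were read by a single feature. Where there were several (23 and 22 genes), all features of a gene had the same sign, and in 12 and 11 genes every feature passed 2-fold. Features of the same gene disagreed in size in Sox4 (0.08 to 1.51) and H19 (-2.16 and -0.02), for example.

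**Figure D2:**
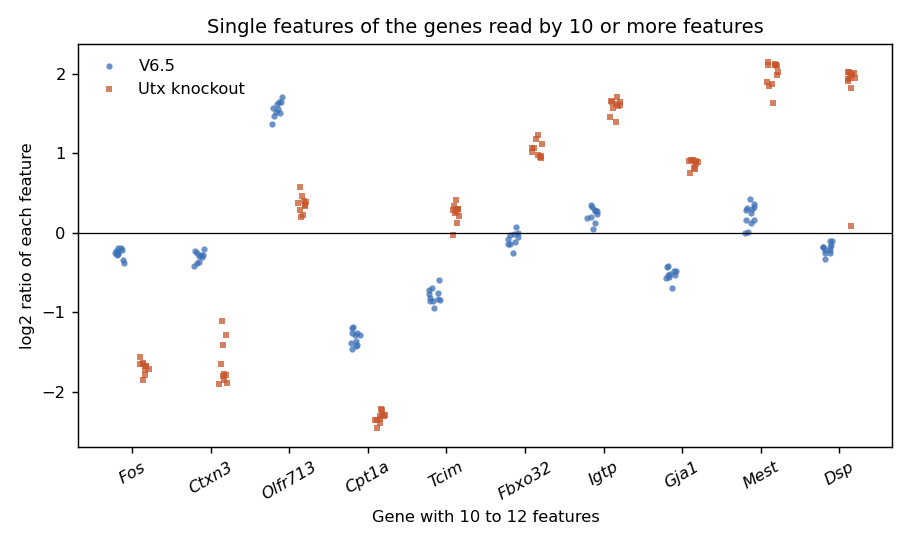
Log2 ratio of RA-treated over untreated cells for each single feature of the 10 genes that were read by at least 10 features and differed at least 2-fold; each point is a feature, in V6.5 or in the Utx knockout. The features of Gja1 and Fos cluster tightly in each line, and 1 feature of Dsp stands apart from the other 10.

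The highest difference was that of Lrp2, the endocytic receptor megalin, with a log2 ratio of 1.05 in V6.5 against 3.53 in the knockout (difference 2.49). Zbtb16, a zinc finger repressor also called PLZF, stood at -0.05 and 2.24. Meox1, a homeobox gene of the somites, stood at 0.20 and 2.36. Each was close to no response, or modestly up, in V6.5 and strongly up in the knockout. Crabp2, which carries RA to its receptor in the nucleus, had ratios of 0.67 and 2.65, and Nr2f2 (COUP-TFII), an orphan nuclear receptor, 0.20 and 2.17. Gprc5c, an orphan receptor of a family named for its induction by RA, had 0.80 and 2.76, though its features ranged from 1.06 to 2.67. Prl4a1 and Ltb, by contrast, were down in V6.5 (-0.89 and -1.63) and up in the knockout (1.52 and 0.59). Hoxc4, Megf10, Phf19, Mest, Cyp1b1, Fam181b and Dsp completed the 15 highest, counted without genes known only by a clone or prediction name, down to a difference of 1.68 for Fam181b.

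The lowest difference was that of Defb25, a beta-defensin, with 2.75 in V6.5 against 0.64 in the knockout (difference -2.11). Clec10a, a C-type lectin, stood at 3.14 and 1.08. In both, the knockout's ratio was the smaller of a pair of positive ratios. Sp5, a target of Wnt signalling, and Fgf7, a fibroblast growth factor, had a positive ratio in V6.5 (0.38 and 0.77) and a negative one in the knockout (-1.46 and -1.03). Cidea, a lipid droplet protein, went from 1.18 to -0.70. Tdgf1 (Cripto), the Nodal coreceptor, was lower after RA in both lines, -0.68 in V6.5 against -2.16 in the knockout (3 features). Fosb, a partner of Jun like Fos, stood at -0.22 and -1.68, and Ccn5, a secreted matrix protein, at -1.01 and -2.67. Iqcf1, Nmnat3, Trim67, Pramel17, Olfr376, Slc38a5 and Avpi1 made up the rest of the 15 lowest, counted the same way. Genes with only such a placeholder name were 25 of the 105 lower and 4 of the 131 higher.

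**Figure D3:**
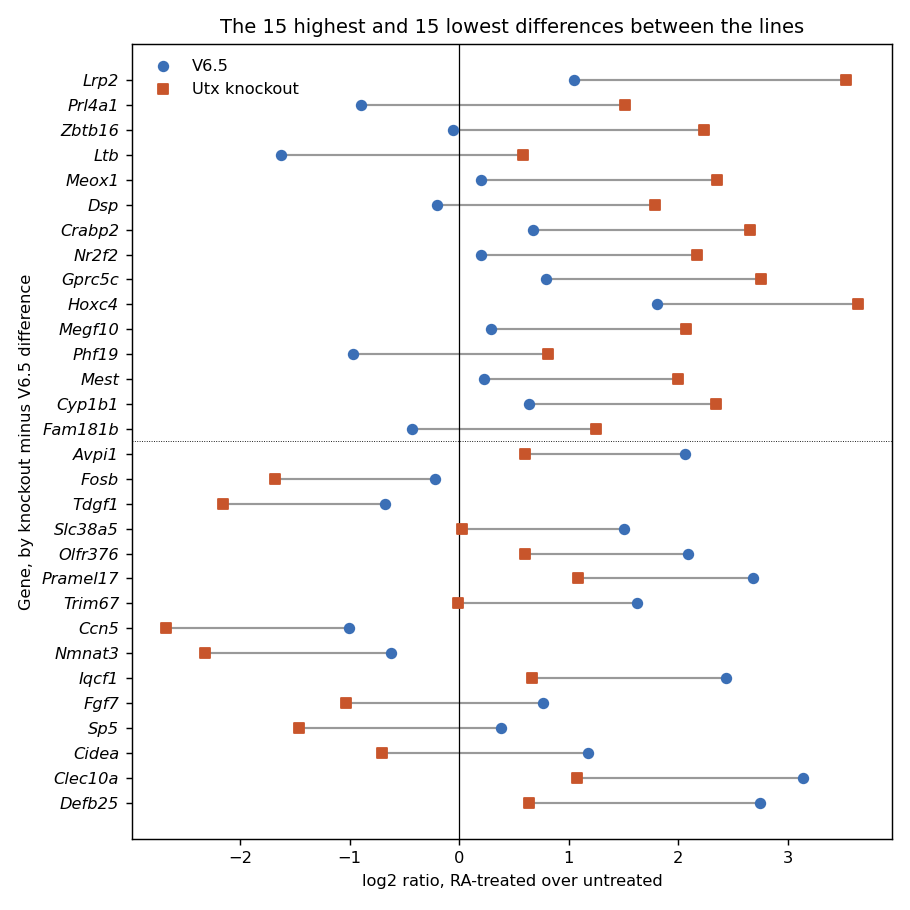
Log2 ratios of RA-treated over untreated cells in V6.5 (circles) and in the Utx knockout (squares) for the 15 genes with the highest and the 15 with the lowest difference (placeholder names left out), ordered by that difference. Most of the upper genes sit near or just above 0 in V6.5 and above 1 in the knockout. Defb25 and Clec10a have positive ratios in both lines, the smaller in the knockout.

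The retinoid pathway leaned to the knockout. Of 16 measured genes of retinoid metabolism and uptake, 13 were above 0, as were 50.7% of all genes, with a median difference of 0.19. At least 1.5-fold higher were 4 (2.5% of all genes were), and none reached 2-fold. Cyp26a1, which degrades RA, had a ratio of 3.54 in V6.5 against 4.27 in the knockout. Stra6, the membrane receptor for retinol-binding protein, had 2.53 and 3.25, and Dhrs3, which turns retinal back to retinol, 1.78 and 2.41. Rbp4, the retinol carrier of plasma, had 0.74 and 1.40. All 4 had positive ratios in both lines, and the knockout ratio was 0.63 to 0.73 higher on the log2 scale. Cyp26b1, the second RA hydroxylase, differed by 0.14.

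Among 16 receptors, carriers and COUP-TF genes, 11 were above 0 (median 0.14) and 2, Crabp2 and Nr2f2, were 2-fold higher. Their relatives Crabp1 (-0.04 and 0.93) and Nr2f1 (0.99 and 1.88) came close to that size. The receptors themselves did not follow. Rarb, an RA receptor that RA induces, had 2.38 in V6.5 against 2.40 in the knockout, though its 2 features gave differences of -0.25 and 0.28. Rara had -0.20 and -0.31, and Rarg 0.50 and 0.10. Of 14 genes taken as direct RA targets, 11 were above 0, with a median of 0.58. At least 2-fold higher were 4, against 0.583% of all genes, and Tgm2 was 2-fold lower (-1.24 and -2.33). This list shares genes with other lists here, Crabp2 among them, so their counts are not separate results. Hoxb1 (3.10 and 3.08, 10 features) and Foxa1 (3.09 and 3.13) were strongly induced to the same extent in both lines, and Cdx1 was less induced in the knockout (1.94 and 1.23). Targets with responses that equalled each other and targets that differed nearly 4-fold thus stood in the same list.

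The promoters of Cyp26a1 and Rarb are shown because they hold the classical RA response element. In the comparison the first was induced more in the knockout, as read by 1 feature. The second was alike on the mean of 2 features whose differences had opposite signs. The element searched for, DR5, is a pair of half-sites in the same orientation (each AGGTCA, or AGTTCA, or GGGTCA, or GGTTCA) with 5 bases between them, on either strand of the 250 bases before the RefSeq gene start (GRCm38.p6), with each promoter read in its gene's direction. Capitals mark the element.
Cyp26a1, chr19:37697751-37697807, plus strand: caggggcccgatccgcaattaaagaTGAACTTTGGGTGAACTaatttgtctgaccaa
Rarb, chr14:16575488-16575554, minus strand: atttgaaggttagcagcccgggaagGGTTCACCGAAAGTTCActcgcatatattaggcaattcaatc
A promoter entry was at hand for 17162 of the 22485 genes, and 12 of them (0.0699%) held a DR5. These 2 were the ones among 11 direct targets with an entry. None of 93 genes with the higher ratio held one, and of 63 with the lower ratio 1 did, Ppbp. The same half-sites spaced by 2 bases (DR2, 0.0874% of all promoters) or 1 base (DR1, 0.192%) were in none of the 93 and none of the 63. A match describes letters, not a bound site.

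The Hox genes, which set position along the body axis, differed by cluster and by gene. Their counts above 0 are to be read against 50.7% of all genes. In the HoxB cluster 8 of 10 measured genes were above 0 (median 0.56), with Hoxb8 at 1.65 in V6.5 against 3.26 in the knockout and Hoxb6 at 1.88 and 2.96. Hoxb13, at the 5' end of the cluster, went the other way (0.79 and -0.26). In HoxA, 7 of 10 were above 0 (median 0.26), led by Hoxa2 (1.12 and 2.72) and Hoxa5 (2.29 and 3.39). In HoxC, 6 of 9 were above 0 (median 0.14), and Hoxc4 (1.81 and 3.64), Hoxc9 (1.13 and 2.65) and Hoxc5 (0.53 and 1.83) were more than 2-fold higher. Hoxc6 and Hoxc8, which lie between Hoxc5 and Hoxc9 in the cluster, differed by 0.07 and 0.22. In HoxD 3 of 9 were above 0 (median -0.15), and none passed 2-fold. Hoxd4 stood at 0.82 and 1.71.

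The 4 Hox genes with the highest ratios in V6.5 differed by 0.51 or less. Hoxb2 had 4.45 and 4.97, Hoxb4 3.42 and 3.81, Hoxa3 3.67 and 3.96, and Hoxb1 no difference beyond -0.02. Genes of paralog groups 10 to 13 in the A, C and D clusters stayed small in both lines, from -0.95 for Hoxc13 in the knockout to 0.64 for Hoxd13 in V6.5. Of the 38 Hox genes, 7 were thus at least 2-fold higher in the knockout and 1 was 2-fold lower, against 0.583% and 0.467% of all genes.

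**Figure D4:**
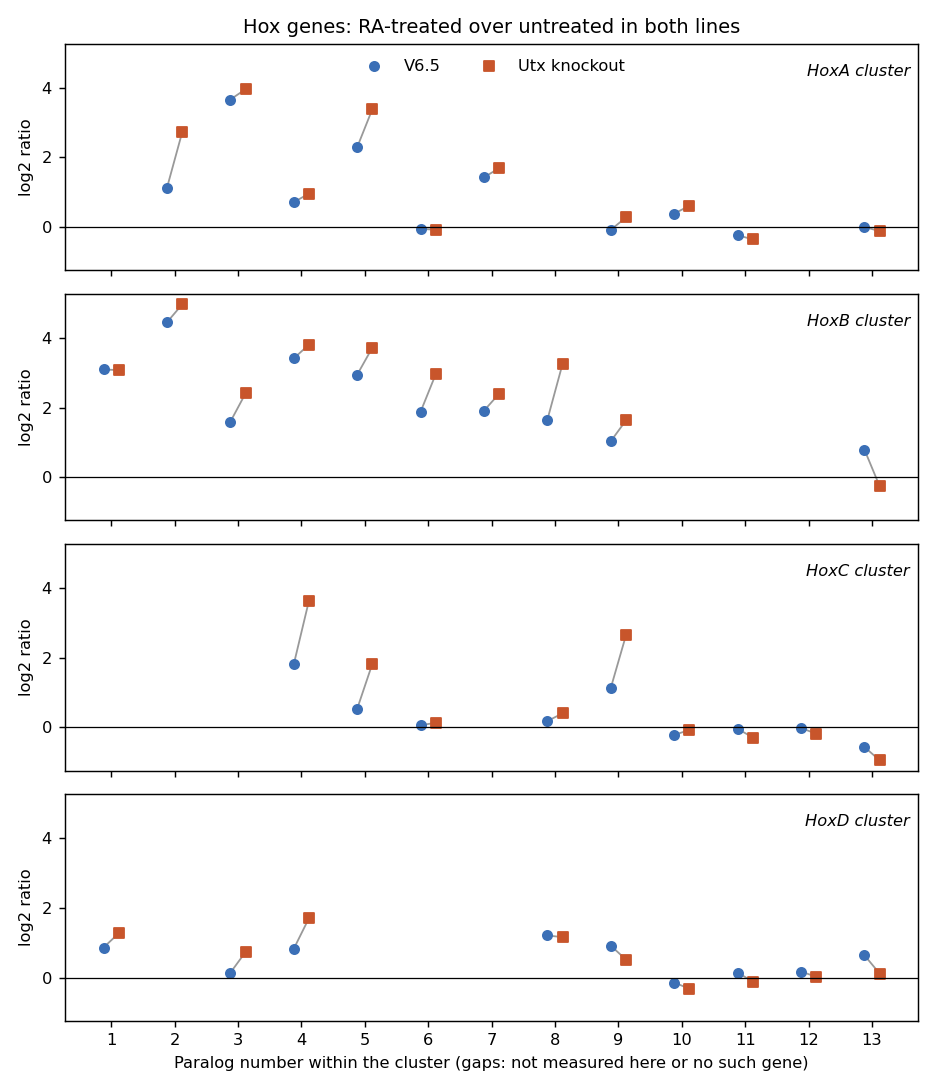
Log2 ratio of RA-treated over untreated cells for each measured Hox gene in V6.5 and in the Utx knockout, 1 panel per cluster and ordered by paralog number. The knockout is above V6.5 for most genes of paralog groups 2 to 9 in HoxB, while Hoxb1 coincides and HoxD shows no common direction.

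The partners of the Hox proteins held some of the same contrast. Of 11 measured cofactors and Cdx genes, 7 were above 0 (median 0.15). Meis2 (2.03 and 3.68) and Meis1 (2.22 and 3.51), homeobox proteins that bind DNA with Hox and Pbx, were 2-fold higher. Pknox2, of the same class, had 1.36 and 2.15, while Pbx3 had 1.10 and 0.83 and Cdx1, an activator of Hox genes, was lower as given above. Among 45 other patterning homeobox genes 24 were above 0 and 21 below (median 0.03). Irx3, of the intermediate neural tube, was the 1 past 2-fold (1.66 and 2.85).

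Neural genes went both ways. Of 30 measured neural progenitor and neuron genes 13 were above 0 and 17 below (median -0.04). Olig3, a bHLH factor of the dorsal neural tube, was higher (2.04 and 3.54), and Olig2, of the ventral cord, was below (-0.95 and -1.79). Zic2, a zinc finger factor of the forebrain and neural plate, was induced in V6.5 (1.06) and not in the knockout (0.01), and Zic5 stood at 0.50 and -0.50. A list of 12 Zic and eye field factors, chosen after their values were seen, had 5 above 0 and 7 below (median -0.08). Rax (-0.59 and -1.86), Zic2 and Vax2 (0.23 and -0.78) were 2-fold lower, as were 0.467% of all genes. That number follows in part from the choice of the list, and none was 2-fold higher. Of 15 neural crest genes 9 were above 0 (median 0.11). Foxd3, which serves both the crest and the ES cell state, was lower (-1.45 and -2.91).

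Genes of epithelial junctions mostly had the higher ratio in the knockout. Of 23 measured genes of epithelial junctions and keratins 22 were above 0, against 50.7% of all genes, with a median difference of 0.48; 10 reached 1.5-fold and 3 reached 2-fold. Besides Dsp these were Cldn3, a tight junction claudin (-0.01 in V6.5 against 1.07 in the knockout), and Esrp1, a splicing factor of epithelia (-1.02 and 0.01). Keratins Krt7 (-0.57 and 0.40) and Krt19 (0.25 and 1.07) and claudin Cldn6 (-0.18 and 0.74) were close behind. For several genes the V6.5 ratio was negative and the knockout ratio nearer to 0. Epcam, an adhesion molecule of ES cells and epithelia, had -0.71 and 0.02, Grhl2, an epithelial transcription factor, -0.84 and -0.21, and Cldn7 -1.29 and -0.58. Cdh1 (E-cadherin) was below 0 in both (-0.88 and -0.55, 10 features).

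A wider list of 24 epithelial genes was chosen after values were seen, so its counts follow in part from that choice. It had 18 above 0 (median 0.26), against 50.7% of all genes, and 6 at least 2-fold higher, against 0.583%. Rab25, a small GTPase of apical recycling, had -1.25 in V6.5 against 0.00 in the knockout. Grhl3, a relative of Grhl2, had -1.38 and -0.19, and Crb3, a polarity protein of the apical membrane, -1.44 and -0.37. Serpinb5 (maspin) had -1.22 and -0.18. In these 4 genes the ratio was more than 2-fold down in V6.5 and within 2-fold in the knockout. Marveld3, of tight junctions, and Gja1 had instead a positive ratio in the knockout.

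The promoters of these 4 genes and of Epcam are shown because they share the letters CAGGTG (or CACCTG on the other strand), the E-box bound by Snail and Zeb repressors of epithelial genes. Capitals mark it, in the last 250 bases before the gene start as above.
Crb3, chr17:57062169-57062200, plus strand: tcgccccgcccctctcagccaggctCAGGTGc
Rab25, chr3:88548302-88548368, minus strand: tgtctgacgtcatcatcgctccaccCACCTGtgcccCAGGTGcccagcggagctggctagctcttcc
Grhl3, chr4:135573633-135573676, minus strand: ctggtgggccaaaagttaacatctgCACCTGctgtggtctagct
Serpinb5, chr1:106861127-106861174, plus strand: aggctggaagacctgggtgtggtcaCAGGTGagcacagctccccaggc
Epcam, chr17:87635935-87635978, plus strand: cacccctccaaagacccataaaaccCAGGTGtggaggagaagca
CAGGTG was in 8 of the 12 promoters at hand for the first epithelial list (66.7%) and in 8 of 15 for the wider one (53.3%), against 19.15% of all 17162. Epithelial genes with a small or opposite difference held it too, among them Pard6b (-0.36), Elf3 (0.11), Krt8 (0.29) and Cldn4 (0.31). Of the promoters of genes past 2-fold, 29 of 93 higher ones held it (31.2%) and 13 of 63 lower ones (20.6%). Of the repressors, Snai1 had ratios of 0.24 and -0.05, Snai2 of -0.24 and -0.71, Zeb1 of 0.77 and 0.42, and Zeb2 of 0.31 and 0.45. Their part in the differences was not tested. The AP-1 site TGAGTCA was in 12 of the 93 (12.9%), in 2 of the 63 (3.17%) and in 4.81% of all.

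Endoderm genes also leaned to the knockout. Of 28 measured genes 20 were above 0 (median 0.19), against 50.7% of all genes. At least 1.5-fold higher were 6, against 2.5% of all genes. Lrp2 was the 1 past 2-fold, followed by Hnf4a, a nuclear receptor of liver and visceral endoderm (-0.67 and 0.16), Lamb1, a laminin chain (-0.15 and 0.62), and Amn, which holds the receptor cubilin at the membrane (-0.37 and 0.37). Foxa2, of definitive endoderm and floor plate, had -0.24 and 0.45 (2 features). Of the core factors of primitive endoderm, Gata4 had 0.06 and 0.25, and Gata6, with the opposite sign, 0.57 and 0.27. Apoa1 (-0.03 and -0.10) and Afp (0.25 and 0.16), secreted proteins of visceral endoderm read by 10 features each, stayed near 0 in both lines. A list of 9 endocytic receptors and ligands around megalin was chosen after values were seen and holds Lrp2 itself. Its counts therefore add no separate result. All 9 were above 0 (median 0.46), against 50.7% of all genes. Besides Lrp2, Clu, a chaperone that megalin takes up, was 2-fold higher (0.10 and 1.43).

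The counts above 0 of mesoderm, trophoblast and germline genes are to be read against 50.7% of all genes. Of 29 mesoderm genes 18 were above 0 with a median of 0.02. Meox1 stood apart, Tcf15, also of somites, had 0.11 and 0.99, and Tal1, of blood, had -0.50 and -1.30. Of 17 trophoblast genes 11 were above 0 (median 0.17), and Gata3 had 2.15 and 2.97. Germline and meiosis genes had 22 of 27 above 0 and a median of 0.35. Stra8, the meiotic entry gene that RA induces, was high in both lines (4.37 and 4.91). Mael, of the piRNA pathway, had 0.59 and 2.02, Dazl, which binds germ cell mRNAs, 0.71 and 1.62, and Slc25a31, an ADP/ATP carrier of testis, 0.79 and 1.58. Prdm14, of primordial germ cells and naive ES cells, was below (-0.15 and -0.98).

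Imprinted genes had 12 of 22 above 0 (median 0.10) with wide scatter. Higher past 2-fold were Mest, Sgce (0.22 in V6.5 against 1.29 in the knockout) and Nnat (0.13 and 1.14), all expressed from the paternal allele, and Peg10, the neighbour of Sgce, had 0.80 and 1.64. H19, from the maternal allele, was lower, but its 2 features disagreed as given above. Genes expressed from either allele were found on both sides. Maternally expressed Ascl2 (-1.02 and -0.19) and Igf2r (0.22 and 0.59, 10 features) were above 0 in the difference. Meg3 was below on average (-0.65 and -1.12), but its 3 features ranged from -1.07 to 0.54. Paternally expressed Igf2 (0.80 and 0.37), Magel2 (2.37 and 1.86) and Peg3 (0.24 and -0.22) were below.

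Interferon-inducible GTPases, which act against microbes inside cells, had in part higher ratios in the knockout. Of 15 measured, a list chosen after values were seen, 12 were above 0 with a median of 0.21, 6 reached 1.5-fold and 3 reached 2-fold. Over all genes 50.7%, 2.5% and 0.583% did. The counts of this list follow in part from its choice. Gbp3 had 2.46 and 3.63, Irgm1 1.43 and 2.47, and Igtp 0.23 and 1.59, the last with 10 features from 1.25 to 1.53. Gbp2 (2.82 and 3.65), Gbp4 (0.52 and 1.41) and Irgm2 (0.36 and 1.03) followed. Of 23 genes of the broader interferon response, a list that also holds Gbp2 and Gbp3, 13 were above 0 (median 0.08), 3 were at least 1.5-fold higher and none was 1.5-fold lower. Besides the Gbp genes the third was Xaf1, a proapoptotic factor (-1.32 and -0.32), while Isg15 (0.94 and 0.66), Rsad2 (1.11 and 0.81), Ifit1 (0.32 and 0.11) and Mx1 (0.48 and 0.21) had the smaller ratio in the knockout. MHC class I and antigen processing genes had 9 of 15 above 0 (median 0.11), with Tap2, a peptide transporter, at 1.23 and 2.12.

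The promoters of 5 of these GTPases with higher ratios in the knockout are shown because all 9 of the list with a promoter entry held a pair of GAAA in the same orientation with 2 bases between them, the core of the element bound by interferon regulatory factors, against 3.43% of all promoters. Capitals mark the pair on either strand (a pair of TTTC on the other), and overlapping matches run together.
Igtp, chr11:58199497-58199555, plus strand: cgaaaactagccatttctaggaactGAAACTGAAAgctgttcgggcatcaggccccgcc
Irgm2, chr11:58214888-58214947, plus strand: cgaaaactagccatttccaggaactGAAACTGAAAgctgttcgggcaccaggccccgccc
Irgm1, chr11:48871421-48871475, minus strand: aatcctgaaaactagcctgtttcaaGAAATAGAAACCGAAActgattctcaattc
Gbp2, chr3:142620579-142620638, plus strand: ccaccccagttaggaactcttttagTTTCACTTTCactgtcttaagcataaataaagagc
Gbp3, chr3:142559974-142560039, plus strand: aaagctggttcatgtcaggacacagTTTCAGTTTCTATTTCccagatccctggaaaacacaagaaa
Igtp and Irgm2 are neighbours on chromosome 11 with nearly the same letters around the element, and their differences were 1.36 and 0.67. Genes without a higher ratio past 1.5-fold held the pair too, among them the GTPases Gbp5 (difference 0.05) and Tgtp1 (-0.14) and the interferon genes Isg15 (-0.28), Rsad2 (-0.31), Ifit1 (-0.21), Ifit3 (-0.26) and Oas1a (-0.30). Of the genes past 2-fold, 7 of 93 higher ones (7.53%) and 3 of 63 lower ones (4.76%) held it.

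More genes of the pluripotent state were below 0 than above. Of 27 naive and core pluripotency genes 18 were below 0, against 49.3% of all genes, with a median of -0.16; 8 were at least 1.5-fold lower, 1 was at least 1.5-fold higher, and Tdgf1 and Fgf4 were 2-fold lower. The medians of the ratios themselves were -0.52 for V6.5 against -0.34 for the knockout, which is the opposite order. Fgf4, a growth factor of the inner cell mass, had -0.64 in V6.5 against -2.07 in the knockout. Pou5f1 (Oct4), the core factor, had -0.94 and -1.58, and Klf4, which LIF sustains, -1.65 and -2.44. Fbxo15, a target of Oct4, was up in V6.5 (0.93) and flat in the knockout (-0.04). Klf2 had 0.07 and -0.70. Others did not share this direction: Zfp42 (Rex1) had -0.62 and -0.22, Esrrb -0.61 and -0.28, Sox2 -0.52 and -0.31, and Lin28a -0.19 and 0.46. Nanog stood at 0.29 and -0.16. The formative or primed genes split, with Foxd3 and Zic2 2-fold lower and Sall2 (1.41 and 2.36) near 2-fold higher, and a median of 0.19 over 14.

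Signalling targets showed the same split by gene. Of 18 genes of the LIF receptor and STAT3 response 12 were below 0 (median -0.17). Besides Sp5, Osmr, the oncostatin receptor, was 2-fold lower (-0.60 and -1.75), and Bcl3, a nuclear cofactor, had -0.51 and -1.41. Socs3, the feedback inhibitor of STAT3, was down in both (-1.26 and -1.45). Of 22 immediate early genes 15 were below 0 (median -0.08). Fos and Fosb were 2-fold lower, Egr2 (-0.48 and -1.10) and Junb (-0.57 and -1.09) were lower by less, and Dusp1 (-0.75 and -0.72), Maff (-0.91 and -0.94) and Myc (-0.23 and -0.24) were equal.

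FGF pathway genes had 15 of 25 above 0 (median 0.11). Dusp4, a phosphatase that acts on ERK, was 2-fold higher (-0.55 and 0.50), with the feedback inhibitors Dusp6 (0.19 and 0.83) and Il17rd (-0.09 and 0.55) in the same direction, while Fgf4 was lower. Spry2 and Spry4 differed by -0.01 and 0.11. In the Nodal list of 19 genes the median was 0.02 and Tdgf1 was the 1 past 2-fold. Lefty1, a Nodal target, was induced alike (2.29 and 2.23). Wnt genes had 11 of 16 below 0 (median -0.05), with Axin2, the general target, at 0.15 and -0.06 and Ccnd1, cyclin D1, at -1.04 and -1.69. BMP and Notch lists had medians of -0.02 (16 genes) and 0.00 (19 genes) with none past 2-fold. Id3, a BMP target, had 1.5 and 0.75.

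Genes of the 2-cell-like state, which a small part of an ES culture enters, were in part strongly induced in both lines and divided by family. Of 21 measured, 15 were below 0 (median -0.25), 4 were 2-fold lower and 3 were at least 1.5-fold higher. Tcstv3 had 2.88 in V6.5 against 1.71 in the knockout, and Usp17lc, Usp17ld and Usp17le, of a deubiquitinase family, had 1.99 and 0.90, 1.85 and 0.74, and 2.0 and 0.89. Zscan4f (4.77 and 5.69) and Zscan4e (4.60 and 5.41) went the other way. By family, all 6 Usp17l genes (median -0.85), all 7 Tdpoz genes (median -0.41) and 7 of 8 Obox genes (median -0.44) were below 0, and 4 of 5 Zscan4 genes were above it (median 0.23). Members of these families have similar sequences, so features may read more than 1 of them.

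The gene name families with the most members past 2-fold were Slc, Klk and Pramel, to be read against 0.583% of all genes higher and 0.467% lower. Slc, with 3 higher and 3 lower of 368, was near those shares. Klk had 4 higher of 25, and Pramel 4 lower of 34. The 4 Klk genes, all kallikrein proteases, were down in V6.5 and less so or flat in the knockout. Klk1b8 stood at -2.45 and -0.82, Klk1b5 at -3.71 and -2.37, Klk1b24 at -2.07 and -0.76, and Klk8 at -1.05 and 0.05. Egfbp2, a kallikrein of the Klk1 group under another name, stood at -3.69 and -2.17. The 4 Pramel genes, relatives of a germ cell antigen, were up in V6.5 and less so in the knockout, with Pramel17 at 2.68 and 1.09 and Pramel21 at 2.84 and 1.54. The family as a whole had 14 genes above 0 and 20 below (median -0.04), and Pramel39 (4.49 and 5.05) and Pramel28 (4.46 and 5.02), among its most induced members, had the higher ratio in the knockout. Both families are recent tandem copies, and the same limit on features holds.

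Chromatin genes mostly differed little. Of 15 genes of the H3K27 methylation system 9 were below 0 (median -0.14), and Phf19, a Polycomb accessory protein, was the 1 past 2-fold (-0.97 and 0.81, 1 feature). Ezh2, the methyltransferase, had -0.08 and 0.01, Suz12 -0.11 and -0.10, Eed -0.43 and -0.44, and Jarid2 -0.23 and 0.02. The medians of PRC1 (21 genes), COMPASS (15 genes) and DNA methylation (13 genes) lists were 0.03, -0.08 and -0.12, and none of their members passed 2-fold. Below 0 were 9, 12 and 10 of their genes in turn, against 49.3% of all genes. Of 8 genes of X inactivation and dosage 7 were above 0 (median 0.08).

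The lists of general cell functions had small medians, but several lay mostly below 0, against 49.3% of all genes. Housekeeping genes had a median of 0.08 (15 genes, none past 1.5-fold), cell cycle genes 0.01 (26) and respiratory chain genes 0.06 (20). Cholesterol and fatty acid synthesis had 14 of 16 below 0 (median -0.15), with Insig1, a sterol sensor, at 0.02 and -0.74. Glycolysis and hypoxia genes had 15 of 22 below 0 (median -0.08), and Ndrg1, a stress gene in that list, was 2-fold lower (-0.94 and -1.97). Of 16 p53 targets 11 were below 0 (median -0.08), and of 16 integrated stress response genes 12 were (median -0.15). No member of either list was past 1.5-fold. The median of heat shock genes (12) was -0.02, with Hspa1a at 1.12 and 0.16. Axon guidance genes had 22 of 35 above 0 (median 0.05). Dcc, the netrin receptor, stood at 1.04 and 0.26, with 3 features from -1.26 to 0.01. Of 16 S100 calcium-binding proteins 11 were above 0 (median 0.06), and S100g, a vitamin D target, was 2-fold higher (0.49 and 1.77).

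Markers of other cells were read for the same comparison. Of 23 fibroblast and collagen genes 15 were below 0 (median -0.20) and 4 were at least 1.5-fold lower, Ccn5, S100a4 (-1.95 and -2.63), Thy1 (-0.80 and -1.46) and Fap (0.28 and -0.36), while Col3a1 (-1.35 and -1.32) and Fn1 (-1.17 and -1.06) were equal. They lie on the side of the pluripotency, LIF and immediate early genes, and their part in those differences was not tested. The fibroblast, endoderm and epithelial markers are ratios without levels, so how many such cells either culture held is not known.

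**Figure D5:**
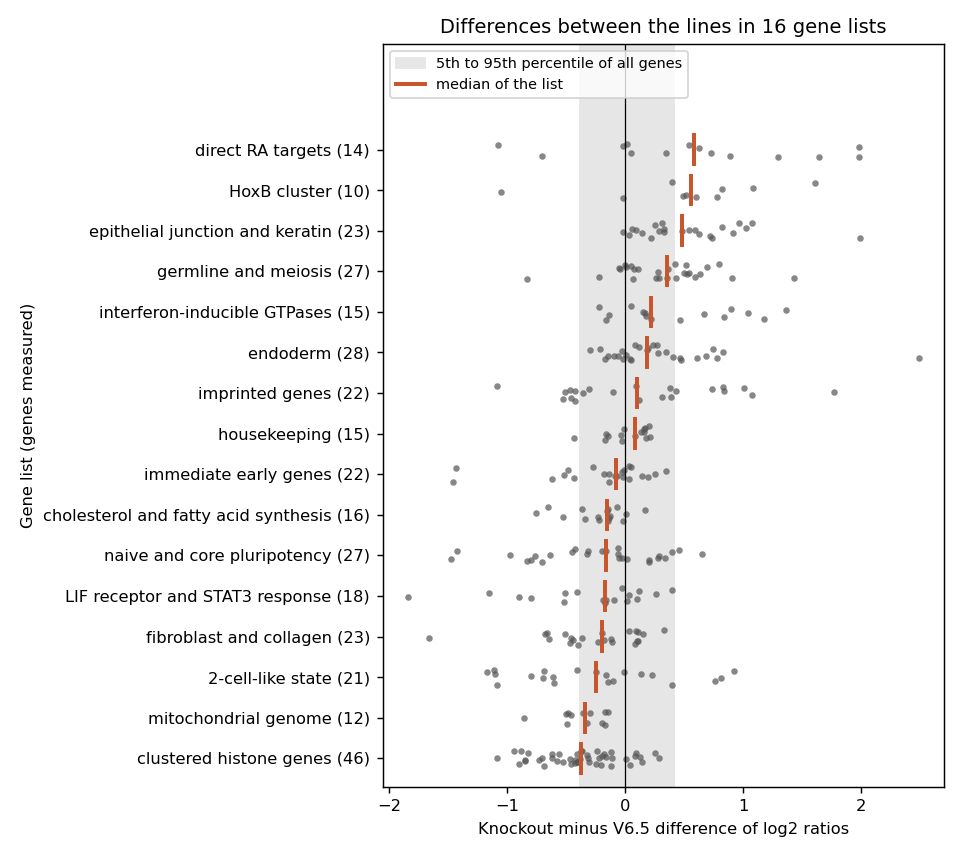
Difference between the lines (knockout minus V6.5 log2 ratio) for each measured gene of the named lists, with the list's median as a bar and the 5th to 95th percentile of single genes as the shaded band, a range for points and not for medians. Direct RA targets, HoxB and epithelial genes have medians of 0.58, 0.56 and 0.48, while clustered histone and mitochondrial genes have medians of -0.38 and -0.35.

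The 2-fold limit cut through genes of nearly the same value. Sox4, Nnat and Xaf1 lay just inside it on the higher side (all 1.00 after rounding), and Samd9l, Nckap1l and Shtn1 just outside (0.99, 0.99 and 1.00). On the lower side Slc10a6, Vax2 and Cpt1a were inside (Slc10a6 at -1.01) and Zic5, Pcdh19 and Enpp4 outside (-0.99, -0.99 and -0.98).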

How the data were processed

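RNA of V6.5 and Utx knockout ES cells, untreated (Cy3) and RA-treated (Cy5), was hybridised to 2 two-colour Agilent arrays, 1 per line. The values used are the authors' deposited ratios, read as log2 from their range, with each column centred on 0. Treated over untreated is a likely reading of the direction, since the labels give Cy5 to treated cells. The submitters' processing notes name limma; the background correction and normalization were not given in the sources used here. With 1 array per line their number limits the precision, and a dye bias alike on both arrays cancels in the difference.

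Features were named through GEO's platform annotation (33026 with 1 symbol, 0 with several, 11371 with none), and 21961 genes matched RefSeq (GRCm38.p6) by Entrez number. Features of a symbol were averaged and V6.5 subtracted from the knockout. Python 3.11.15, numpy 2.4.6, pandas 2.3.3 and matplotlib 3.10.9 were used, tested on simulated data.

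Named were the 15 highest and 15 lowest genes and the 5 most different of each response class (without clone and prediction names), list members past 2-fold or among the 4 most different of their list, retinoid and Hox genes, Kdm6a, Kdm6b and Uty, 3 families and 3 genes on each side of the limit. Other members and 4 of the lists were chosen after their values were seen. All 46 other lists were chosen with earlier results of these data known, as was the comparison. Alternatives were the median of features, array medians at 0, equal SD, single features, genes with several features and other fold sizes.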

Additional observations from a re-analysis of the deposited data

Results flagged for a closer look

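In 6 genes RA-treated cells were at least 1.5-fold above untreated cells in one line and at least 1.5-fold below them in the other. Prl4a1, of the placental prolactin family, was down in V6.5 and up in the knockout (difference 2.41), as were Ltb, a lymphotoxin subunit (2.21), Phf19 (1.78) and Gsg1, a germ cell gene (1.29). Fgf7 (-1.79) and Cidea (-1.88) were up in V6.5 and down in the knockout. With 1 array per line the difference was not tested.

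Of the 11371 features without a gene name, which no comparison above uses, 79 differed at least 2-fold (0.695%), 24 of them higher in the knockout and 55 lower. That share was below the 1.05% of the 22485 genes that differed at least 2-fold on the mean of their features. Their differences ran from -2.24 to 2.26.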

How the results depend on the processing

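The 2-fold counts were 131 higher and 105 lower. With the median of a gene's features they were 131 and 108, with both array medians set to 0 they were 131 and 104, and with equal SD on both arrays 119 and 104, of which 119 and 98 were the same genes. Of 99 named genes past 2-fold, 99, 98 and 90 remained so in turn. Under equal SD the BMP list's median changed from -0.02 to 0.02. That of direct RA targets fell from 0.58 to 0.44, with 9 of 14 above 0 in place of 11. The HoxB median fell from 0.56 to 0.47, and that of epithelial junctions and keratins from 0.48 to 0.46. Genes with at least 2 features gave 23 and 22, single features, named or not, 255 and 239, 1.5-fold 562 and 422, and 3-fold 20 and 15. No paired analysis was possible because each line has 1 array, and for the same reason no array could be left out. Signal over background is not known, so dim genes cannot be told from bright ones.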

Other observations

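The replication-dependent histone genes of the clusters, grouped after their values were seen, lay mostly below 0. Of 46 measured 38 were below, against 49.3% of all genes. Their median ratio was 0.51 in V6.5 against 0.12 in the knockout, and their median difference was -0.38. The linker histones H1 (6 of 6 below, median -0.65), H2A (13 of 14, -0.44), H4 (7 of 8, -0.39) and H2B (9 of 10, -0.27) shared this, while of 8 H3 genes 5 were above 0 (median 0.06). H2ac4 was the 1 past 2-fold (1.11 and 0.02). Of 8 replacement histone genes, 4 were above 0 and 4 below (median -0.10).

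All 12 measured genes of the mitochondrial genome were below 0 as well, against 49.3% of all genes. Their median ratio was 0.46 in V6.5 against 0.14 in the knockout, and their median difference was -0.35. ND6, the gene on the other strand, was the lowest (0.09 and -0.77), and COX1 the least different (-0.15). Nuclear genes of the respiratory chain had a median of 0.06.

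By chromosome, the medians of the 19 autosomes ran from -0.02 to 0.03, that of the X chromosome, which carries Utx, was 0.04 (901 genes), and that of the Y was -0.05 (29 genes). All 7 Y-linked genes of a list were below 0 (median -0.14), against 49.3% of all genes. Eif2s3y stood at -0.19 in V6.5 against -0.83 in the knockout.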
